A study of Brachypodium distachyon and Sorghum bicolor and Panicum virgatum with 44 samples.

Results

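Sites predicted to be cut under the guidance of miR169 were examined in 3 grasses, the temperate model species Brachypodium distachyon and the larger crops sorghum and switchgrass. A member was every pair of a transcript and a predicted cleavage position for which the deposited table of that species named a miRNA of the miR169 family, whether or not a read was found there. There were 1208 such sites of 36467 sites in all, 812 of 25863 in Brachypodium, 225 of 7435 in sorghum and 171 of 3169 in switchgrass. Cut ends were read by PARE (Parallel Analysis of RNA Ends), a method that captures uncapped 5′ ends of polyadenylated RNA, in 14 libraries of Brachypodium, 10 of sorghum and 10 of switchgrass. Messenger RNA was measured by RNA-seq in 10 Brachypodium libraries. The Brachypodium plants were of the line Bd21, the sorghum plants BTx623 and the switchgrass plants AP13. For RNA-seq, above ground tissue was taken from 21-day-old control plants kept at 20 °C and from plants of that age after 12 h of drought (roots taken out of the soil and dried), cold (4 °C), submergence under water or heat (40 °C), with 2 replicates in each of the 5 groups. The PARE libraries of Brachypodium came from the same treatments and from leaf, stem, panicle and root, those of sorghum from leaf, root, panicle, 14-day-old plants kept at 4 °C for 24 h and controls of that age, and those of switchgrass from leaf, stem, panicle, plants kept at 4 °C for 24 h and their controls. Drought, cold, submergence and heat each started from the same control group, so the comparisons with control share its 2 libraries.

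In plants, a miRNA guides an Argonaute protein to a nearly complementary stretch of an mRNA, and the mRNA is cut opposite the middle of the miRNA, which leaves an uncapped 3′ fragment that PARE can capture. miR169 is a large and widely conserved family whose best known targets are mRNAs of NF-YA, the subunit of the trimeric factor NF-Y that recognises the CCAAT sequence in promoters, while NF-YB and NF-YC provide the histone-like dimer to which NF-YA binds. In Arabidopsis and other plants the family is known for its part in the control of NF-YA mRNAs under drought, cold and nutrient stress.

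The miR169 names in the 3 tables stood for 21 distinct sequences. Brachypodium had 11 sequences of the 5p type and 6 of the 3p arm, sorghum had 9 and 1, and switchgrass, for which miRNAs matching those of other grasses had been used, had 6 and 0. Names without an arm (such as miR169b) carried sequences of the 5p type and were counted with that arm. Of the 14 distinct 5p sequences, 3 were used in all 3 species, 6 in a pair of species and 5 in 1 species. The sequences are printed because the number of them that share a site separates the sites described below, and the capitals mark the seed (bases 2 to 8 from the 5′ end). The 9 Brachypodium sequences of the first group share the seed AGCCAAG, as do all 9 sorghum and all 6 switchgrass 5p sequences.
miR169a-5p: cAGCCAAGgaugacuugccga
miR169b: uAGCCAAGgaugacuugccgg
miR169c-5p/miR169f: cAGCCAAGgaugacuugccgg
miR169d: uAGCCAAGaaugacuugccua
miR169e-5p/miR169g: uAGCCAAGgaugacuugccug
miR169h-5p/miR169n: uAGCCAAGgaugacuugccua
miR169k-5p: uAGCCAAGgaugauuugccugu
miR169l: uAGCCAAGgaugaauugccgg
miR169m: uAGCCAAGgaugacuugccg

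Relative to miR169a-5p, and counted from 1 at its 5′ end, most of these differ at the ends only (C1U, G20U, A21G), while miR169d also carries G9A, miR169k-5p C14U and miR169l C14A. A pair of Brachypodium sequences has other seeds. miR169j-5p carries A7G within the seed, and miR169i begins 1 base earlier than the rest, so that its seed is shifted. The sorghum sequence shared by miR169p and miR169q keeps the common seed but has the same A13G as miR169j-5p.
miR169j-5p: uAGCCAGGaauggcuugccua
miR169i: cCAGCCAAgaauggcuugccua
sorghum miR169p/miR169q: uAGCCAAGaauggcuugccua

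The 3p sequences, which come from the other strand of the hairpin, share no seed with each other. The following are those of the 3p sites named in the text.
miR169a-3p: gGCGAGUUguucuuggcuaca
miR169h-3p: gGCAGUCAccuuggcuagc
miR169e-3p: gGCAGUCUccuuggcuagc
miR169c-3p: gGCAGGUUguccuuggcuac
miR169k-3p: gGGCAAGUcagccuggcuacc
sorghum miR169d-3p: gGGCGGUCaccuuggcuagc

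Each site has 1 PARE abundance, in TP10M (tags scaled by the authors to a fixed library size), the rank of that position on its transcript, and its share of the PARE reads of the transcript. The deposited prominence Level is 0 without a read, and otherwise 1 plus 1 for each of an abundance of at least 10 TP10M, a rank of 1 or 2, and a share of at least 20%. In every table that rule returned the Level as deposited, at 9788 Brachypodium, 1852 sorghum and 1474 switchgrass sites with a read. The study's text describes a lower share than the deposited Levels follow. With a share of 10%, the rule differed from the deposited Level at 131, 27 and 40 of these sites. The values belong to a single library named for the site, since abundance divided by share gave the same transcript total (within 0.5%) for 373 of 373 pairs of Brachypodium sites that shared a transcript and a library and for 19 of 3184 pairs that shared only the transcript. How that library was chosen is not given in the sources used here. It need not be the library with the highest value at the site, so orders of sites by abundance are orders of these single values. The site tables give 1 value a site, so the values carry no error and no test here, PARE values of a site in the other libraries were not analysed here, and the tables scale abundance to TP10M without the raw read numbers.

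A PARE read was found at 349 of the 812 miR169 sites of Brachypodium (43%), where 37.8% of all sites of the table had a read. In sorghum it was 73 of 225 (32.4%, with 24.9% over all sites), and in switchgrass 93 of 171 (54.4%, with 46.5% over all sites). Most of these were traces, since 288, 52 and 78 of them stood at 1 TP10M. Level 3 or 4 was reached by 9 Brachypodium sites (1.11%, with 0.762% over all sites), 6 sorghum sites (2.67%, with 0.968%) and 15 switchgrass sites (8.77%, with 3.79%). The shares of the 3 species are not on the same footing, because the transcripts of sorghum and switchgrass were first selected by the authors as homologs of Brachypodium targets. The family was the third of 184 families by its number of sites in Brachypodium and the fifth by sites at Level 3 or 4, and it was the second of 63 families in sorghum and of 29 in switchgrass by the latter.

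**Figure D1:**
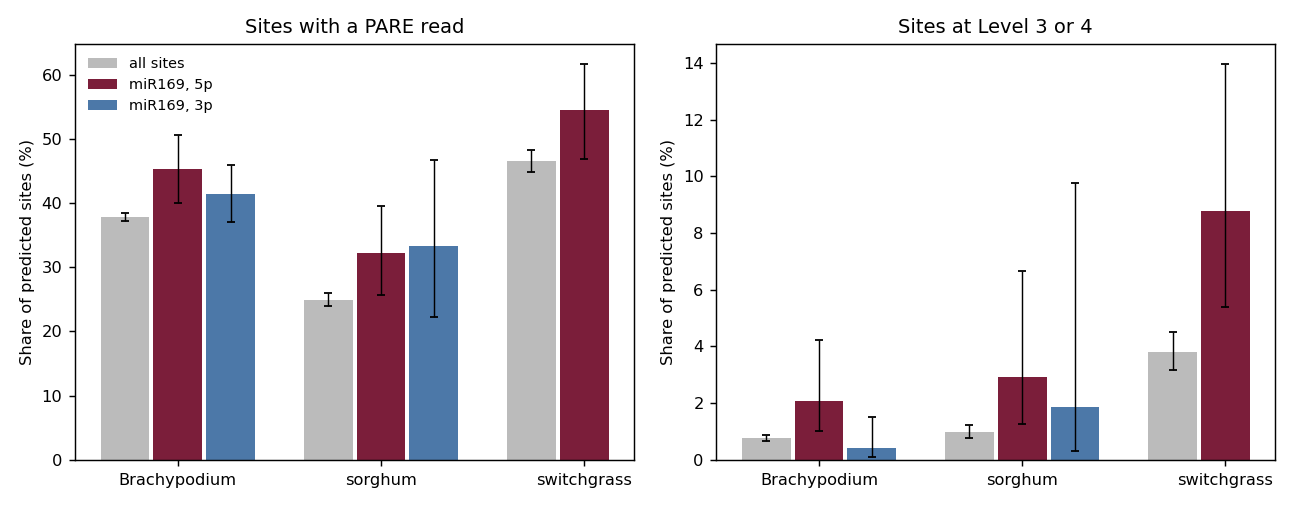
Share of predicted sites (%, bars) with a PARE read (left) and at Level 3 or 4 (right) for all sites of each species and for miR169 sites of the 5p and 3p arms, with 95% Wilson intervals that cover counting error only. The 5p bar is the highest at Level 3 or 4 in each species, at 2.07%, 2.92% and 8.77%, and switchgrass has no 3p sequence.

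Sites were also counted by arm, with no test of the difference. In Brachypodium, 7 of 338 sites of the 5p arm stood at Level 3 or 4 (2.07%, 95% Wilson interval 1.007 to 4.212%), 5 of them at Level 4, whereas 2 of 474 sites of the 3p arm did so (0.422%, 0.1158 to 1.525%), none at Level 4. The shares with any read were close, at 45.3% and 41.4%. In sorghum, 5 of 171 sites of the 5p arm and 1 of 54 sites of miR169d-3p stood at Level 3 or 4. No site was predicted for both arms, and no miR169 site was also predicted for another family.

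Sites also differed in how many 5p sequences were predicted to use them, here called breadth. In Brachypodium, 31 sites were predicted for at least 5 of the 5p sequences, and 6 of them stood at Level 3 or 4 (19.4%). Of the other 307 sites of the 5p arm, 1 stood at Level 3 (0.326%). In sorghum the counts were 3 of 21 (14.3%) and 2 of 150 (1.33%), and in switchgrass 12 of 15 (80%) and 3 of 156 (1.92%). The same limit of 5 is out of 11 5p sequences in Brachypodium, 9 in sorghum and 6 in switchgrass. These shares can therefore not be compared between species. The limit of 5 sequences was chosen after these values were seen, and the sequences that share a site are near copies of each other, so their number is not a number of independent predictions. Prediction scores ran the same way. Among Brachypodium sites with a psRNATarget expectation (a mismatch penalty, lower for closer pairing) of at most 3, 5 of 26 stood at Level 3 or 4, and above 3 it was 3 of 712.

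**Figure D2:**
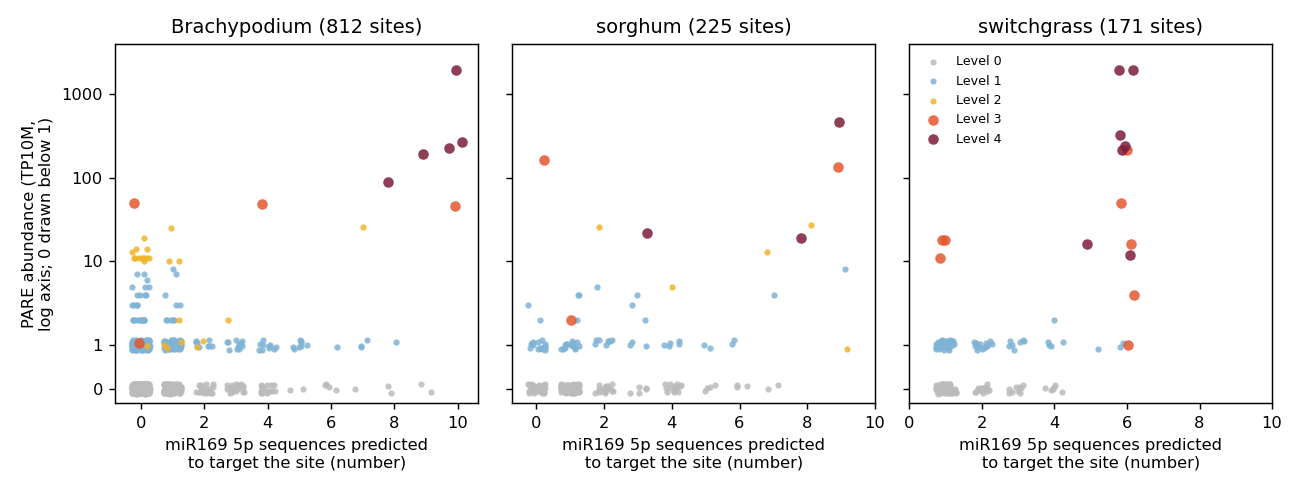
PARE abundance (TP10M, log axis, with 0 drawn below 1 and the points at 0 and 1 spread vertically) of every miR169 site against the number of 5p sequences predicted to target it, coloured by Level. In Brachypodium all 5 sites at Level 4 lie at 8 or more sequences, and in switchgrass 6 of the 7 lie at the full 6.

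The 5 Level 4 sites of Brachypodium were all broad. The highest lay at position 1235 of Bradi3g57320.1 (predicted site 1223 to 1244), with 1965 TP10M, a share of 69.2% of the PARE reads of the transcript and rank 1, in control replicate 1. It was the second of all 25863 sites of the species by abundance and was predicted for 10 sequences. Position 1686 of Bradi1g13680.1 (site 1674 to 1695) had 265 TP10M and 25.0% in heat replicate 1, and position 3686 of Bradi4g01380.3 (site 3674 to 3695) had 225 TP10M and 24.5% in heat replicate 2, each with 10 sequences. Position 1214 of Bradi1g21762.1 (site 1202 to 1223), with 9 sequences, had 193 TP10M and 33.8% in control replicate 1. Position 918 of Bradi1g72960.2 (site 906 to 927) had 89 TP10M and 20.8% in a library that is not a sample of this series, which the study lists as root, and its 8 sequences were predicted by TargetFinder alone. Each of these was the highest PARE position on its transcript. Positions are counted along the transcript, and the genomic position and coding context of the sites were not analysed here.

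A domain annotation was at hand for 80 of the 779 Brachypodium member transcripts, from the part of the study's tables used here. It gives the NF-YA domain (PF02045) to Bradi1g13680.1 and Bradi1g21762.1 and to a transcript with a Level 3 site, Bradi1g11800.5. There, position 1447 (site 1435 to 1456) had 46 TP10M, a share of 14.3% and rank 1, again for 10 sequences and in a library outside this series, which the study lists as panicle. That value is not the highest of the site. The study reports higher normalized PARE abundances at this position in its control libraries, and lower ones in cold than in control. These 3 transcripts were the NF-YA members with an annotation, and they held 5 sites, 3 of them at Level 3 or 4. The annotation comes from the study's lists of predicted targets with Levels, so having one may depend on having a read. The share of annotated sites with reads or at high Levels is therefore no measure of NF-YA transcripts in general. No annotation was at hand for Bradi3g57320, Bradi4g01380 or Bradi1g72960, so they are described here by their identifiers.

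The 3 other Level 3 sites had few sequences. Position 4012 of Bradi1g55216.4, a site of miR169a-3p, had 50 TP10M and 4.38% in heat replicate 2. Position 1891 of Bradi1g49300.5, which encodes a phosphofructokinase (the enzyme that phosphorylates fructose 6-phosphate in glycolysis), had 48 TP10M and 4.24% in heat replicate 1 for 4 sequences. Position 148 of Bradi1g41705.1, a site of miR169h-3p, reached Level 3 with 1 TP10M, which was 20% of a transcript total of 5 TP10M in cold replicate 1. The Level of that site thus rests on a handful of tags, while the total on Bradi3g57320.1 was 2840 TP10M.

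Level 2 held 24 Brachypodium sites. The highest was position 693 of Bradi1g20360.1, which encodes a protein with an RNA recognition motif, with 26 TP10M but 2.30% of its transcript in heat replicate 2 and 7 sequences. Another 6 were sites of miR169e-3p with the identical value of 11 TP10M in the same library, which lies outside this series, and 4 of their transcripts (Bradi0012s00100.1, Bradi1g06851.4, Bradi1g06861.2 and Bradi1g06870.1) carry the elongation factor Tu domain 2. Near-identical genes can share reads, so these 6 sites may stand for 1 set of reads, and their shares were between 0.04313 and 0.2681%.

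The tables allow the position of the reads to be compared with a site 1 base away. miR169i starts 1 base earlier than the rest of the family, and its predicted cleavage position lay 1 base downstream of a site of other 5p sequences on 17 transcripts. On Bradi1g13680.1 the abundance was 265 TP10M at position 1686 (heat replicate 1) and 10 TP10M at position 1687 (heat replicate 2). On Bradi4g01380.3 it was 225 at 3686 and 4 at 3687, on Bradi1g11800.5 46 at 1447 and 1 at 1448, and on Bradi1g20360.1 26 at 693 and 1 at 694. The upstream position was the higher in these 4 pairs and the lower in 1, Bradi3g15050.1, with 1 and 3 TP10M. In 9 pairs both positions had the same low value, and in 3 neither had a read. The named library differed between the positions of each of the 4 pairs, so the ratios are not within a library. None of the 26 sites of miR169i reached Level 3, although 21 had a read.

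Not every broad site had reads. Of the 11 Brachypodium sites with at least 8 sequences, 6 stood at Level 3 or 4, 1 at Level 1 and 4 had no read, on Bradi1g01790.2, Bradi1g31695.1, Bradi2g49425.2 and Bradi5g20997.3. Of these transcripts, 3 paired with a miR169 sequence without any penalty, at a TargetFinder score of 0. Bradi1g01790.2 did so with miR169k-3p at position 2141 and with miR169k-5p at position 2234, 93 bases further, and Bradi5g20997.3 with miR169c-3p at 2634 and with miR169c-5p at 2702, 68 bases further. Bradi1g31695.1 did so with miR169b and miR169m at 1133. These 5 sites were the only miR169 sites with a score of 0 in the 3 tables, and none had a PARE read. Bradi1g01790.2 and Bradi5g20997.3 each paired with both arms of the same miRNA. Whether these transcripts overlap the miRNA gene on the opposite strand was not tested. The genes of the 3 transcripts had low TPM (RSEM transcript abundance, scaled for length and library). Over the 10 RNA-seq libraries it ran from 3.37 to 9.18 for Bradi1g01790, from 0.54 to 5.74 for Bradi1g31695 and from 2 to 5.42 for Bradi5g20997. Over all member genes, the median TPM was 2.19 for those without a read and 25.9 for those at Level 1. Bradi4g01380, which has a Level 4 site, had TPM from 1.36 to 2.71. Whether TPM bears on the missing reads was not tested.

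In sorghum the Level 4 sites were position 2626 of Sobic.001G127800.1 (460 TP10M, 24.0% of the transcript, root replicate 2, 9 sequences), position 433 of Sobic.002G110500.1 (22 TP10M, 29.3%, cold replicate 1, 3 sequences) and position 1641 of Sobic.002G370800.1 (19 TP10M, 23.2%, leaf replicate 2, 8 sequences). The first was the ninth of all 7435 sorghum sites by abundance. At Level 3, Sobic.001G154500.1 had 133 TP10M at position 1623 for 9 sequences (11.3%, panicle replicate 1), and Sobic.003G131800.1 had 2 TP10M at position 1914 for 1 sequence. The remaining Level 3 site was of the 3p arm, with 164 TP10M (19.2%) at position 3374 of Sobic.003G339500.1 in root replicate 2, the highest value on that arm in any species. The 4 sorghum sites with all 9 sequences thus ranged from 460 TP10M down to 133, 8 (Sobic.008G174650.1) and 1 (Sobic.004G316500.2), though the last pair had expectations of 1.5 and 2, among the lowest of the species. No annotation of the sorghum transcripts was at hand.

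Switchgrass had 7 sites at Level 4 and 8 at Level 3, and 11 of these 15 were predicted for all 6 sequences. The highest pair, position 1569 of Pavir.9KG069000.1 and position 1442 of Pavir.9NG184100.1, had 1955 TP10M each in stem replicate 1, with shares of 73.9% and 75.1%, and both were predicted by TargetFinder alone. K and N in these names mark the subgenomes of this tetraploid grass, and equal values in the same library can be the same reads mapped to both copies. Equal values in a library were also found for Pavir.7KG162000.1 and Pavir.7NG196600.1, at 18 TP10M each in leaf replicate 1. They were found too for Pavir.3KG551100.1 (position 1452, Level 4) and Pavir.3KG549800.1 (position 1385, Level 3), at 213 TP10M each in stem replicate 1. The names place both of the latter in subgenome K. With sites that share value and library counted once, the 15 sites came to 12. The other Level 4 sites were on Pavir.9KG040100.1 (325 TP10M, leaf replicate 1), Pavir.9NG146600.1 (238 TP10M, stem replicate 1), Pavir.2KG529900.1 (16 TP10M, 76.2%, stem replicate 2) and Pavir.2NG583300.1 (12 TP10M, 48%, panicle replicate 2). Of the 27 switchgrass member transcripts with an annotation at hand, 6 carry the NF-YA domain, and all 6 had a site at Level 3 or 4, from 213 TP10M on the 3K pair down to 4 on Pavir.1NG528900.1 and 1 on Pavir.1NG526800.1. Here too an annotation may depend on having a read, so NF-YA transcripts without reads could be missing from this count. The remaining Level 3 sites were on Pavir.9NG726300.1 (50 TP10M, leaf replicate 1), Pavir.9KG612800.1 (16 TP10M, leaf replicate 1) and Pavir.5KG397100.1 (11 TP10M, stem replicate 1).

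The Sec1 family, chosen here after its values were seen and not the only other domain annotated in both Brachypodium and switchgrass, is made of proteins that act with SNAREs in vesicle fusion. It was annotated on Bradi1g14940.1 (7 sequences, expectation 3), Pavir.1KG159500.1 (3 sequences, expectation 3) and Pavir.1NG204200.1 (6 sequences, expectation 4). All 3 sites had 1 TP10M and stood at Level 1.

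The libraries named for the sites were spread over treatments and tissues. In Brachypodium the 349 miR169 sites with a read named drought for 76 (21.8%, with 18.3% over all sites with a read), heat for 68 (19.5%, with 16.8%), control for 55 (15.8%, with 16.4%), cold for 49 (14%, with 17.7%) and submergence for 42 (12%, with 15.8%). A further 59 (16.9%, with 15%) named 4 libraries outside this series. The 4 leaf, stem, panicle and root samples of Brachypodium in the series were named for no site. Of the 9 sites at Level 3 or 4, heat was named for 4 (44.4%, with 11.2% of all 197 Brachypodium sites at these Levels), control for 2 (22.2%, with 10.2%), cold for 1 (11.1%, with 8.63%) and a library outside the series for 2 (22.2%, with 52.3%). In switchgrass, stem was named for 20 of the 93 sites with a read (21.5%, with 19.3% over all sites with a read) and for 8 of the 15 at Level 3 or 4 (53.3%, with 38.3% of all 120 sites at these Levels). Neither cold nor its control was named for any of the 15, and over all sites at these Levels they took 6.67% and 2.5%. In sorghum the 6 sites named root and panicle for 2 each (22.2% and 13.9% of all 72 sites at these Levels), and leaf and cold for 1 each (27.8% and 15.3%).

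The Brachypodium sites lay on 779 genes, 636 of which passed the filter on low counts among 23494 genes tested. The RNA-seq libraries held from 9885330 to 17978714 counts, and fold changes and adjusted p-values are from edgeR's quasi-likelihood test with Benjamini-Hochberg adjustment over all genes tested (n = 2 a group). The labels number the replicates as Bio 1 and Bio 2 and give no further origin, so the p-values measure the spread between these libraries. In bulk tissue, fewer cells of a type and less RNA per cell cannot be told apart, and the labelled tissue was not checked against marker genes, because the gene identifiers carry no names here. The mean TPM of the member genes rose with the read evidence at their sites, with a median of 2.19 TPM over the 446 genes without a read, 25.9 over 301 at Level 1 and 61 over 23 at Level 2. The 9 genes with a site at Level 3 or 4 had a median of 7.55, below those at Levels 1 and 2.

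Under drought, 234 of the 636 genes were higher than in control (36.8%, with 32.1% of all genes) and 179 were lower (28.1%, with 32.8%). Under cold, 102 were higher (16%, with 12.2%) and 52 lower (8.18%, with 9.63%). Under submergence, 98 were higher (15.4%, with 14.9%) and 99 lower (15.6%, with 16.6%), and under heat 60 were higher (9.43%, with 8.21%) and 73 lower (11.5%, with 8.7%). These shares lie close to those of all genes. The balance of directions depends on the scaling of the libraries. The share of higher genes among members called was 56.7% (drought), 66.2% (cold), 49.7% (submergence) and 45.1% (heat) with TMM scaling, 42.5%, 37.6%, 69.3% and 70.5% with library size alone, and 43.9%, 47.6%, 49% and 51.8% with upper quartile scaling. The counts also rest on the controls. Where a library is left out, here and for single genes, its group keeps 1 library, which is assumed to vary like the other groups. Without control replicate 2, 8 genes were higher and 21 lower under heat, 31 and 37 under submergence, and 50 and 21 under cold.

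The 6 genes whose sites were both broad and at Level 3 or 4 did not move as a block. Under drought 3 of them fell and none rose (32.8% of all genes fell and 32.1% rose), with a median log2 fold change of -0.58 beside -0.07 over all genes. Under cold 1 rose and none fell (12.2% of all genes rose and 9.63% fell). Under submergence 1 fell and none rose (16.6% of all genes fell and 14.9% rose). Under heat 2 fell and none rose (8.7% of all genes fell and 8.21% rose). In the following sentences TPM values are given in the order control, drought, cold, submergence and heat, with both replicates of each.

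**Figure D3:**
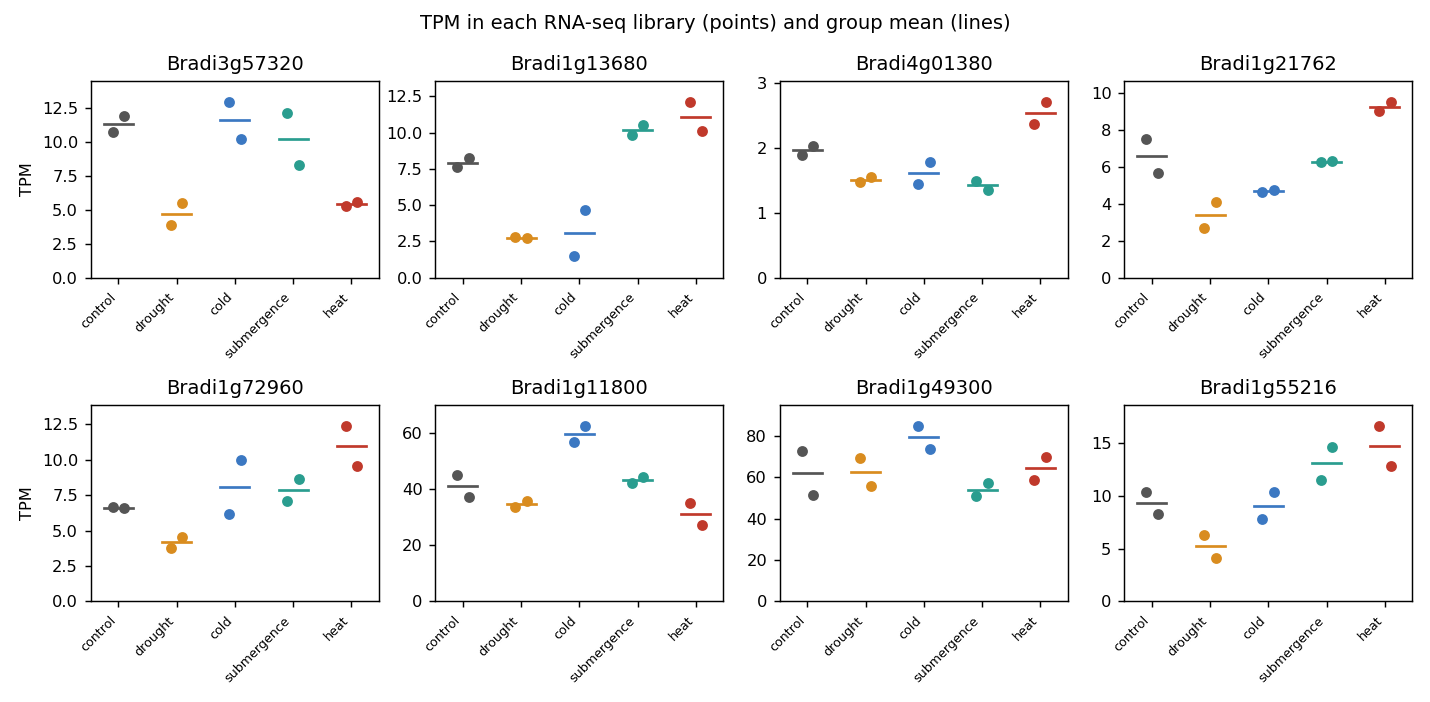
TPM of the 8 expressed genes with a miR169 site at Level 3 or 4 in each of the 10 RNA-seq libraries (points, 2 per group) and the group means (lines), with axes from 0. Bradi3g57320 is lowest in drought and heat, and Bradi1g11800 is highest in cold.

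Bradi3g57320, with the most abundant site, had TPM of 10.7 and 11.9, 3.86 and 5.48, 12.9 and 10.2, 12.1 and 8.3, and 5.26 and 5.55. Drought and heat libraries lay below both controls, and cold and submergence overlapped with them. The log2 fold change was -1.05 ± 0.27 (SE) in drought (2.06-fold lower, edgeR adjusted p = 0.0066) and -1.21 ± 0.26 in heat (2.31-fold lower, adjusted p = 0.013), and it was 0.3 ± 0.25 in cold and -0.38 ± 0.25 in submergence, neither of which passed. The drought call was lost without drought replicate 1 (adjusted p = 0.057, log2 fold change -0.8). The heat call was lost without either control or either heat library (adjusted p up to 0.1), with log2 fold changes between -1.32 and -1.11 throughout. Its PARE value was from control replicate 1.

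Bradi1g13680, an NF-YA gene, had TPM of 7.61 and 8.23, 2.79 and 2.73, 1.49 and 4.65, 9.84 and 10.5, and 12.1 and 10.1. All drought and cold libraries lay below the controls, and all submergence and heat libraries lay above them. The fall in drought passed the test (log2 fold change -1.3 ± 0.39, 2.46-fold lower, edgeR adjusted p = 0.015), though not without control replicate 2, drought replicate 1 or drought replicate 2 (adjusted p up to 0.069, log2 fold change from -1.4 to -1.22). In cold the value was -1.11 ± 0.38 (adjusted p = 0.063). The cold replicates differed by more than 3-fold in TPM, and the value was -0.51 without cold replicate 1 (adjusted p = 0.21) and -2.14 without cold replicate 2 (adjusted p = 0.00054). The values in heat and submergence were 0.33 ± 0.35 and 0.12 ± 0.35.

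Bradi1g21762, another NF-YA gene, had TPM of 7.51 and 5.65, 2.7 and 4.08, 4.63 and 4.73, 6.27 and 6.31, and 9.03 and 9.51. Drought was lowest and heat highest. The drought value was -0.72 ± 0.27 (1.64-fold lower, edgeR adjusted p = 0.038), and the call was lost without control replicate 1 (adjusted p = 0.19) or drought replicate 1 (adjusted p = 0.22). Cold, submergence and heat gave -0.22 ± 0.25, -0.3 ± 0.25 and 0.35 ± 0.24, none of which passed.

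Bradi1g11800, the most abundant of the 3 annotated NF-YA genes, moved in another direction. Its TPM were 45.2 and 37.4, 33.8 and 35.8, 57 and 62.7, 42.3 and 44.6, and 35.3 and 27.2, so that both cold libraries lay above and both heat libraries below the controls. In cold it rose by 0.81 ± 0.15 on the log2 scale (1.75-fold, edgeR adjusted p = 0.004), and without control replicate 2 the adjusted p was 0.052 with a log2 fold change of 0.7. In heat it fell by 0.57 ± 0.15 (1.48-fold lower, adjusted p = 0.028), a call lost without control replicate 1, control replicate 2 or heat replicate 2 (adjusted p up to 0.18). Drought and submergence gave -0.03 ± 0.15 and -0.16 ± 0.15. The TPM of the drought libraries lie below the controls while the fold change is near 0. TPM does not use the TMM scaling factors, which were 0.864 and 0.825 in drought and 1.035 and 1.022 in control.

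Bradi4g01380 was the least abundant of the 6, with TPM of 1.9 and 2.04, 1.47 and 1.55, 1.45 and 1.78, 1.49 and 1.36, and 2.37 and 2.71. Its fall in submergence, of 0.7 ± 0.24 on the log2 scale, was at the threshold (edgeR adjusted p = 0.048) and was lost without each of the 10 libraries in turn, with values from -0.82 to -0.59. Bradi1g72960 had TPM of 6.64 and 6.6, 3.8 and 4.58, 6.18 and 10, 7.08 and 8.64, and 12.4 and 9.54. None of its 4 comparisons with control passed the test, with log2 fold changes of -0.45 ± 0.28, 0.54 ± 0.26, -0.02 ± 0.26 and 0.46 ± 0.26 for drought, cold, submergence and heat.

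**Figure D4:**
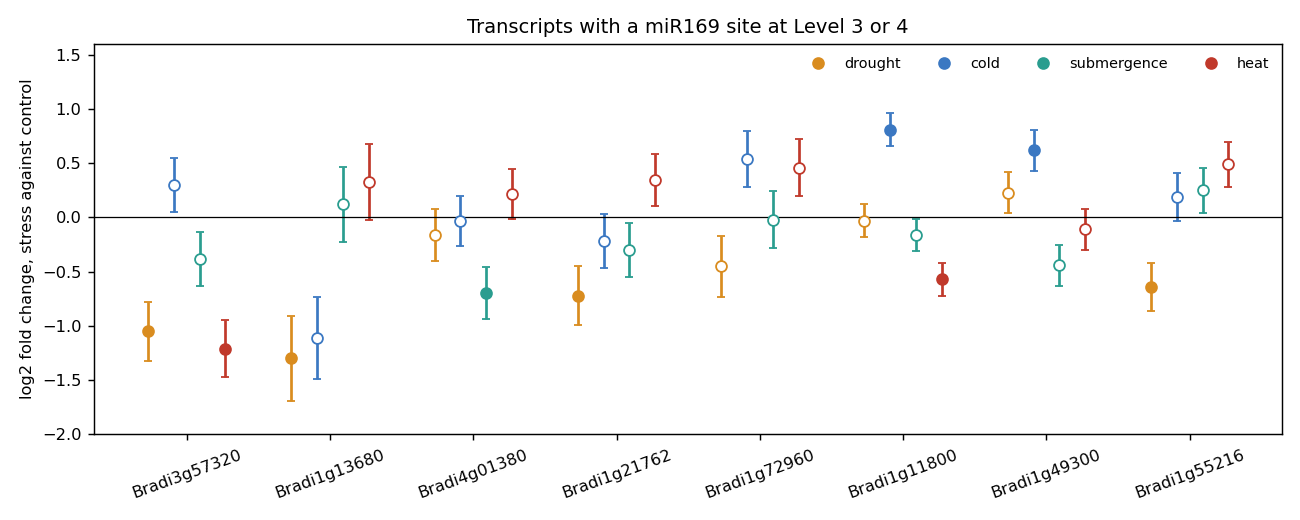
Log2 fold change of each stress against control (points, with SE as bars) from edgeR for the 8 expressed genes with a miR169 site at Level 3 or 4. Filled points have an adjusted p under 0.05, and open points do not. Drought values of the first 6 genes run from -1.3 to -0.03.

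Of the genes with narrower sites at Level 3, the phosphofructokinase gene Bradi1g49300 had TPM of 72.8 and 51.5, 69.2 and 55.7, 85 and 74, 51 and 57.1, and 59 and 70.1. Its rise in cold (log2 fold change 0.62 ± 0.19, edgeR adjusted p = 0.044) did not pass without 7 of the 10 libraries (both cold, both drought, both submergence and control replicate 2), where the adjusted p reached 0.29. Bradi1g55216, with the site of miR169a-3p, had TPM of 10.3 and 8.3, 6.26 and 4.14, 7.8 and 10.3, 11.5 and 14.6, and 16.6 and 12.8. It fell in drought by 0.64 ± 0.22 (adjusted p = 0.03), a call lost without either control or without drought replicate 2 (adjusted p up to 0.22). Bradi1g41705 was at 0 counts in all 10 RNA-seq libraries and was not tested.

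The stresses were also compared with each other, which needs no control library. The percentages of all genes called were 56.1% for drought against cold, 58.5% for drought against submergence, 67.6% for drought against heat, 41.3% for cold against submergence, 42.2% for cold against heat and 39.1% for submergence against heat. Of the 6 genes with broad sites, 3, 1, 4, 3, 3 and 2 were called in these comparisons. Bradi1g11800 was higher in cold than in drought (the log2 difference of drought minus cold was -0.83 ± 0.15, edgeR adjusted p = 0.001), than in submergence (0.97 ± 0.15, adjusted p = 0.00084) and than in heat (1.37 ± 0.15, adjusted p = 0.00012), and these 3 calls stayed without each library in turn. Bradi3g57320 was higher in cold than in drought (drought minus cold -1.34 ± 0.27, adjusted p = 0.0021) and than in heat (1.51 ± 0.26, adjusted p = 0.0016), and these calls also stayed. Its difference between drought and heat was 0.16 ± 0.27.

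Bradi1g13680 and Bradi1g21762 had their highest TPM in heat. Drought minus heat was -1.63 ± 0.39 for Bradi1g13680 (edgeR adjusted p = 0.0042) and -1.07 ± 0.26 for Bradi1g21762 (adjusted p = 0.0048), and both calls stayed without each library in turn. Cold minus heat was -1.44 ± 0.37 for Bradi1g13680 (adjusted p = 0.012), from -2.46 without cold replicate 2 to -0.83 without cold replicate 1. The PARE value of Bradi1g13680 was from heat replicate 1 and that of Bradi1g21762 from control replicate 1.

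The Brachypodium genes annotated with a domain of NF-Y subunits were these 3 NF-YA genes and Bradi1g21900, which has no miR169 site. Bradi1g21900 carries the histone-like domain found in NF-YB and NF-YC (PF00808). The domain alone does not show that it is an NF-Y subunit. Under drought 1 of the 4 rose and 2 fell, where 32.1% and 32.8% of all genes did so. The gene that rose was Bradi1g21900, with TPM, in the same order of groups, of 39.7 and 32.1, 100 and 124, 46.7 and 30.2, 61 and 47.3, and 47.2 and 51. Both drought libraries lay above all others. Its log2 fold change in drought was 1.87 ± 0.25 (3.66-fold, edgeR adjusted p = 0.00012, kept without each library in turn), and its other values, from 0.31 to 0.37, did not pass. The list is short because nearly all annotated members lie on chromosome 1 in the tables used here.

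The member genes with the largest changes in each stress had sites of Level 0 to 2. Under drought the largest rises were those of Bradi4g00340 (0.17 and 0 TPM in control, 241 and 146 in drought) and Bradi1g73840 (0.39 and 0.17 against 210 and 195). Both have a 3p site, with 1 TP10M and no read. The controls of Bradi4g00340 held 1 count in all, so its ratio of 2920 has a counting interval from 523 to 115000, and Bradi1g73840 had 6 control counts and a log2 fold change of 9.74 ± 0.26 (edgeR adjusted p = 1.6e-07). The largest falls were of Bradi1g12960, annotated with a domain of unknown function (32.7 and 37.1 against 1.42 and 1.03 TPM, log2 fold change -4.73 ± 0.27, adjusted p = 9.8e-07), and Bradi1g32933 (21.3 and 24.6 against 0.68 and 0.98, -4.65 ± 0.28, adjusted p = 1.3e-06). Their sites had 1 TP10M each.

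Under cold, Bradi2g55310 rose from 2.48 and 1.08 TPM to 86.1 and 128 (log2 fold change 6.2 ± 0.35, edgeR adjusted p = 3.5e-06), and it also stood at 91.4 and 82.9 TPM in drought. Its miR169 site had 8 TP10M at Level 1. Bradi1g23390, annotated as a cotton fibre expressed protein, rose from 0.61 and 2.48 to 78.5 and 58.9 TPM (5.67 ± 0.48, adjusted p = 4.2e-05). Bradi1g58000 fell from 8.1 and 9.41 to 1.35 and 1.8 TPM (-2.22 ± 0.31, adjusted p = 9e-04), with 0.66 and 0.32 TPM in drought (-4.03 ± 0.39, adjusted p = 1.6e-05), and Bradi1g65725 from 64.5 and 82 to 13.5 and 15.7 (-2.07 ± 0.18, adjusted p = 4.4e-05). Bradi1g65725 carries 1 of the 6 sites of miR169e-3p that share the value of 11 TP10M.

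Under submergence, Bradi3g38487 rose from 4.8 and 5.64 TPM to 20.4 and 63.7 (log2 fold change 2.75 ± 0.46, edgeR adjusted p = 0.0024), and Bradi1g51540 from 17 and 17.7 to 77.2 and 182 (2.64 ± 0.37, adjusted p = 0.0011). In both, the submergence replicates differed by more than 2-fold from each other. Bradi1g51540 stood higher still in drought, at 295 and 366 TPM (4.47 ± 0.4, adjusted p = 1e-05). Bradi1g31460, of the ribosomal protein L7Ae family, fell from 244 and 336 to 81.4 and 95.9 TPM (-1.96 ± 0.2, adjusted p = 0.00038) and stood at 46.3 and 40.4 in drought (-2.53 ± 0.2, adjusted p = 5.8e-06), and Bradi4g04050 fell from 122 and 114 to 36.5 and 34.9 (-1.94 ± 0.26, adjusted p = 0.00084). Their sites had 1 or 2 TP10M.

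Under heat, Bradi5g11620 rose from 6.97 and 5.09 TPM to 19 and 28.5 (log2 fold change 1.85 ± 0.27, edgeR adjusted p = 0.0026). The gene of the RNA recognition motif protein, Bradi1g20360, which has the highest Level 2 site with 7 sequences, rose from 14.8 and 11.9 to 53.7 and 48.7 TPM (1.79 ± 0.19, adjusted p = 0.00076). Its TPM in drought were 203 and 234 (4.26 ± 0.2, adjusted p = 4.9e-07), and the PARE value of its site was from heat replicate 2. Bradi4g04987 fell from 7.52 and 8.21 to 1.53 and 1.4 TPM (-2.64 ± 0.57, adjusted p = 0.014), a call lost without either control or either heat library (adjusted p up to 0.1), and Bradi5g27570 fell from 86.6 and 95.8 to 30 and 22 (-1.97 ± 0.21, adjusted p = 0.00076). In drought Bradi5g27570 stood at 12.9 and 9.96 TPM (-2.77 ± 0.22, adjusted p = 5.5e-06).

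The genes whose sites paired without penalty but had no read were not alike under drought. Bradi1g01790 rose (log2 fold change 1.01 ± 0.24, edgeR adjusted p = 0.0041), while Bradi1g31695 fell by 2.21 ± 0.44 (adjusted p = 0.0016) and Bradi5g20997 by 0.85 ± 0.24 (adjusted p = 0.011). The call of Bradi5g20997 was lost without control replicate 2 or drought replicate 2 (adjusted p up to 0.1). These genes were picked after their values were seen.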

How the data were processed

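PARE and RNA-seq libraries were grouped by their labels. The authors trimmed PARE reads, mapped them with Bowtie (0.12.7 in the submitters' processing notes), predicted sites with psRNATarget and TargetFinder, and deposited 1 table per species. Its abundance (TP10M, whole numbers), rank, Level, expectation and TargetFinder score were used as deposited scores, and the deposited fraction of the PARE reads of the transcript is given as a percent. For RNA-seq the authors mapped reads with STAR (2.5.3a) and deposited RSEM (1.2.31) expected counts and TPM per gene. TPM is scaled to each library and keeps no depth.

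Sites were counted once per transcript and position, with miRNA names merged where sequences were identical. Expected counts were rounded, filtered by filterByExpr (23494 of 34310 genes kept), scaled by TMM and tested with edgeR 4.0.16 (R 4.3.3) in a joint fit of the 10 libraries without a block, and Benjamini-Hochberg adjustment at 0.05. Standard errors were derived as the size of each log2 fold change over the root of its F statistic. The code was tested on simulated data. The smallest library held 9885330 counts, and intervals cover counting error only (Wilson for shares in Python 3.11.15 with scipy 1.17.1, exact binomial for count ratios).

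Named were all sites at Level 3 or 4, all sites on transcripts annotated as NF-YA, the highest site per arm and species, and per stress the 2 largest rises and falls among member genes with an adjusted p under 0.05, at least 10 CPM in the higher group and no overlap with control. Members and lists were chosen with earlier results of these data known. Alternatives were DESeq2 1.42.0, other scalings, no filter, only control and 1 stress, a replicate block, each library left out, and other site counts. The domain annotation used covers part of the transcripts and may favour those with a read, and no reference genome was used.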

Additional observations from a re-analysis of the deposited data

Results flagged for a closer look

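Bradi1g11800, an NF-YA gene with a miR169 site at Level 3, was called in opposite directions in cold and in heat against control, and its level differed between these stresses by a log2 fold change of 1.37 (cold against heat, edgeR adjusted p = 0.00012), with both cold libraries (57 and 62.7 TPM) above both heat libraries (35.3 and 27.2 TPM). Among the 8 expressed genes whose sites reached Level 3 or 4, it alone was called both higher and lower against control. Calls in both directions were also made for 69 of the 636 member genes and for 2045 of all 23494 genes. The pattern is therefore not peculiar to this gene.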

How the results depend on the processing

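With each library left out in turn, the number of member genes higher ranged from 183 to 235 (drought), 50 to 101 (cold), 31 to 104 (submergence) and 8 to 64 (heat), and the number lower, in the same order, from 152 to 188, from 21 to 58, from 37 to 99 and from 21 to 80, with the lowest counts without control replicate 2, except the lower genes of drought, which were fewest without drought replicate 2. Library size alone shifted the median log2 fold change of all genes to -0.36, -0.3, 0.2 and 0.17 in drought, cold, submergence and heat, and gave 116 members lower in cold, 158 higher in submergence, and 105 higher and 44 lower in heat. Upper quartile scaling (medians of -0.33 and -0.19 in drought and cold) gave 86 lower in cold. A log2 fold change of at least 1 left 61 and 31 members higher and lower (cold), 42 and 52 (submergence) and 26 and 37 (heat). Among the 324 tested members with a PARE read, 139 were higher and 96 lower in drought (42.9% and 29.6%, with 32.1% and 32.8% of all genes). In cold it was 59 and 30 (18.2% and 9.26%, with 12.2% and 9.63%). In submergence it was 63 and 57 (19.4% and 17.6%, with 14.9% and 16.6%), and in heat 25 and 46 (7.72% and 14.2%, with 8.21% and 8.7%). Members with a read also had higher TPM than those without, and the difference in shares was not tested. Counts under the other alternatives with all libraries, DESeq2 included, stayed within 1.5 times.

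Values that changed sign had not passed the test as reported and did not pass when changed. They were Bradi1g11800 in drought (0.06 with DESeq2, 0.07 without control replicate 1, 0.04 without drought replicate 1) and submergence (0.04 with library size alone), Bradi1g49300 in drought (-0.05 with library size alone, -0.02 with upper quartile) and heat (0.05 with library size alone, 0.14 and 0.07 without control or heat replicate 1), Bradi1g55216 in cold (-0.08 with library size alone, 0 without cold replicate 2), Bradi1g72960 in submergence (0.18 with library size alone, 0 without control replicate 2, 0.08 without submergence replicate 1) and Bradi4g01380 in cold (0.05 without control replicate 2, 0.11 without cold replicate 1). Under DESeq2 the falls of Bradi1g21762 and Bradi1g55216 in drought and of Bradi4g01380 in submergence no longer passed (adjusted p of 0.13, 0.077 and 0.13). Bradi1g13680 in cold passed with library size alone, upper quartile and no filter (0.024, 0.037 and 0.046). With library size alone the changes of Bradi1g49300 in cold, Bradi4g01380 in submergence and Bradi1g11800 in heat did not pass (0.2, 0.12 and 0.093), and Bradi1g72960 in drought did (0.048). The causes were not tested. The ranges over left-out libraries were -0.14 to 0.07 for Bradi1g11800 in drought, 0 to 0.37 for Bradi1g55216 in cold, -0.18 to 0.11 for Bradi4g01380 in cold, -0.15 to 0.08 for Bradi1g72960 in submergence and -0.32 to 0.14 for Bradi1g49300 in heat.

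Deviations of same-numbered libraries were weakly correlated (from -0.17 to 0.14 over 10 pairs of groups). With 2 libraries a group this cannot show whether the numbers mark a shared batch, and the labels do not say. With the replicate block, Bradi1g21762 in drought (-0.72), Bradi1g49300 in cold (0.63) and Bradi4g01380 in submergence (-0.7) no longer passed, with adjusted p of 0.05, 0.053 and 0.058, and the counts stayed within 1.5 times.

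Asking for at least 2 TP10M left 61, 21 and 15 sites with a read in Brachypodium, sorghum and switchgrass. Counting each pair of miRNA and site gave 545, 191 and 209 with a read and 63, 31 and 74 at Level 3 or 4. Other choices, a peak share of 10% among them, stayed within 1.5 times. Counting switchgrass sites with shared values once, and leaving out libraries in the comparisons between stresses, were chosen after seeing the data.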
